A study of Mus musculus with 18 samples.

Results

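The genes described here are 10 mouse genes that encode testis histone variants and the small proteins that pack DNA in sperm. They were chosen by name: H1f6, H1f7, H1f9, H2bc1, H2ac1, Prm1, Prm2, Prm3, Tnp1 and Tnp2. All 10 were found among the 22657 genes of the table, H1f9 under its older symbol Hils1. RNA-seq was made from cultured testes of ICR mice, an outbred stock, in 18 samples that form 6 groups of 3. A0, A10 and A50 were testes of mice that had no busulfan, kept for 48 h in medium with 0, 10 or 50 μg/mL of alginate oligosaccharides (AOS), short sugar chains cut from the alginate of brown algae. The mice of B0, BA10 and BA50 had received busulfan, an anti-cancer drug that alkylates DNA and kills proliferating germ cells, and their testes were cultured at the same 0, 10 and 50 μg/mL of AOS. Busulfan was injected once at 40 μg per g of body weight when the mice were 3 weeks old, and the testes were taken 2 weeks later. The design text of the series gives AOS as mg per kg of body weight, and the unit of the labels, μg/mL of medium, is used here. The methods describe 6 testes per treatment and 3 repeats of the culture, and p-values measure the spread between these samples only.

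In the testis, sperm chromatin is remade in steps. Testis forms of the histones (the proteins DNA is wound on) enter the chromatin of spermatogonia and spermatocytes, and spermatids then remove most histones, first for transition proteins and then for protamines, which pack the DNA of the sperm head. Protamine and transition protein mRNAs are made in round spermatids and stored before they are translated in elongating spermatids. TH2A (H2ac1), TH2B (H2bc1) and H1t (H1f6) are the histone variants of the earlier steps. H1T2 (H1f7) and HILS1 (H1f9) are linker histones of spermatids. TNP1 and TNP2 are the transition proteins, PRM1 and PRM2 the protamines, and PRM3 is an acidic protein encoded between Prm2 and Tnp2. In the text, the first 3 genes are called the earlier histone variants and the other 7 the spermatid genes.

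All coordinates are those of RefSeq on GRCm38.p6. Tnp2, Prm3, Prm2 and Prm1 lie next to each other on the minus strand of chromosome 16, in a stretch of 8.889 kb (chr16:10787935-10796823). Tnp1 stands alone on chromosome 1 (chr1:73015074-73015899, minus strand). H2bc1 (chr13:23933725-23934156, minus strand) and H2ac1 (chr13:23934437-23934913, plus strand) are transcribed away from each other, and 280 bases separate their starts. Both lie within the annotated span of the long noncoding RNA Gm33516. H1f6 is on chromosome 13 too (chr13:23695811-23696545, plus strand), H1f7 on chromosome 15 (chr15:98255982-98257307, minus strand). H1f9 (chr11:94967593-94968456, plus strand) lies inside Sgca, a gene on the opposite strand that had 1.83 to 10.8 FPKM in the 18 samples. The 5 histone genes and Prm3 have 1 exon, and Tnp1 and Tnp2 have 2.

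The bases just before the annotated starts are shown because these 4 spermatid genes had high and closely tied RNA levels. Each stretch is 120 bases long, ends at the base before the start and is written 5′ to 3′ on the strand of the gene. Capitals mark TGACNTCA and TATAA on either strand.
Prm1 (chr16:10796824-10796943): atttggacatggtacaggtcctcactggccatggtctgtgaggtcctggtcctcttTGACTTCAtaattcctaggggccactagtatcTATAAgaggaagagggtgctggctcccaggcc
Prm2 (chr16:10792106-10792225): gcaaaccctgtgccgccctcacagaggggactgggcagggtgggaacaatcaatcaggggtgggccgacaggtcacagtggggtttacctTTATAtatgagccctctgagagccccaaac
Tnp1 (chr1:73015900-73016019): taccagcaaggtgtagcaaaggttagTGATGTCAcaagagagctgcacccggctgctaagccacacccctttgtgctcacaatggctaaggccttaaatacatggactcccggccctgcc
Tnp2 (chr16:10788656-10788775): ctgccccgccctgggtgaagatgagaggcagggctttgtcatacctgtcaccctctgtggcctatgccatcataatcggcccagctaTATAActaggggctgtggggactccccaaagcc
TATAA was found within 250 bases before the start in 6 of the 10 genes and in 22.8% of all 32851 RefSeq windows of that length. TGACNTCA, letters close to the site that the cyclic AMP response factors bind, was found in 3 of the 10 genes (Prm1, Prm3 and Tnp1) and in 7.49% of the windows.

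H2ac1 and H2bc1 share the DNA between their starts, and the 250 bases before H2ac1 are shown for that reason (chr13:23934187-23934436, plus strand). Capitals mark TATAA, ATTTGCAT and CCAAT on either strand.
H2ac1 and H2bc1: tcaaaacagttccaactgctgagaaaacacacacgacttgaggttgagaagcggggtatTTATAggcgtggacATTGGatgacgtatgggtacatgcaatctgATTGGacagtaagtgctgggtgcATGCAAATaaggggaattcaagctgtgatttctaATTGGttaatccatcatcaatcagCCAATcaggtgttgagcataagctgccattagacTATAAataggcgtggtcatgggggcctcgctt
ATTTGCAT, the octamer found before many histone genes, was in this shared stretch only among the 10 genes and was in 1.60% of all windows. CCAAT was found in 5 of the 10 genes and in 33.8% of all windows. These matches are a description of letters and do not show that a factor was bound.

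The values are FPKM, fragments counted per gene, scaled by gene length and by the fragments of the sample, so levels of different genes can be set side by side. In A0, the protamine and transition protein genes were far above the histone variants. Prm2 had a mean of 1019 ± 364 FPKM (SD, n = 3), Prm1 929.7 ± 263, Tnp1 485 ± 112 and Tnp2 468 ± 115. The ranges of Prm2 and Prm1 overlapped, as did those of Tnp1 and Tnp2. H1f9 followed at 93.1 ± 30.7, Prm3 at 52.2 ± 16.5 and H1f7 at 47.2 ± 15.95, and each of these overlapped its neighbour in the order. The earlier histone variants were lowest, with H1f6 at 1.39 ± 0.333, H2bc1 at 0.667 ± 0.0635 and H2ac1 at 0.587 ± 0.10 FPKM. The libraries were made from poly(A) RNA, and mRNAs of clustered histone genes often lack a poly(A) tail. The part of this in the low levels of H1f6, H2bc1 and H2ac1 was not tested. Histone H2A and H2B genes are also near copies of each other, so reads could have been divided between them.

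**Figure D1:**
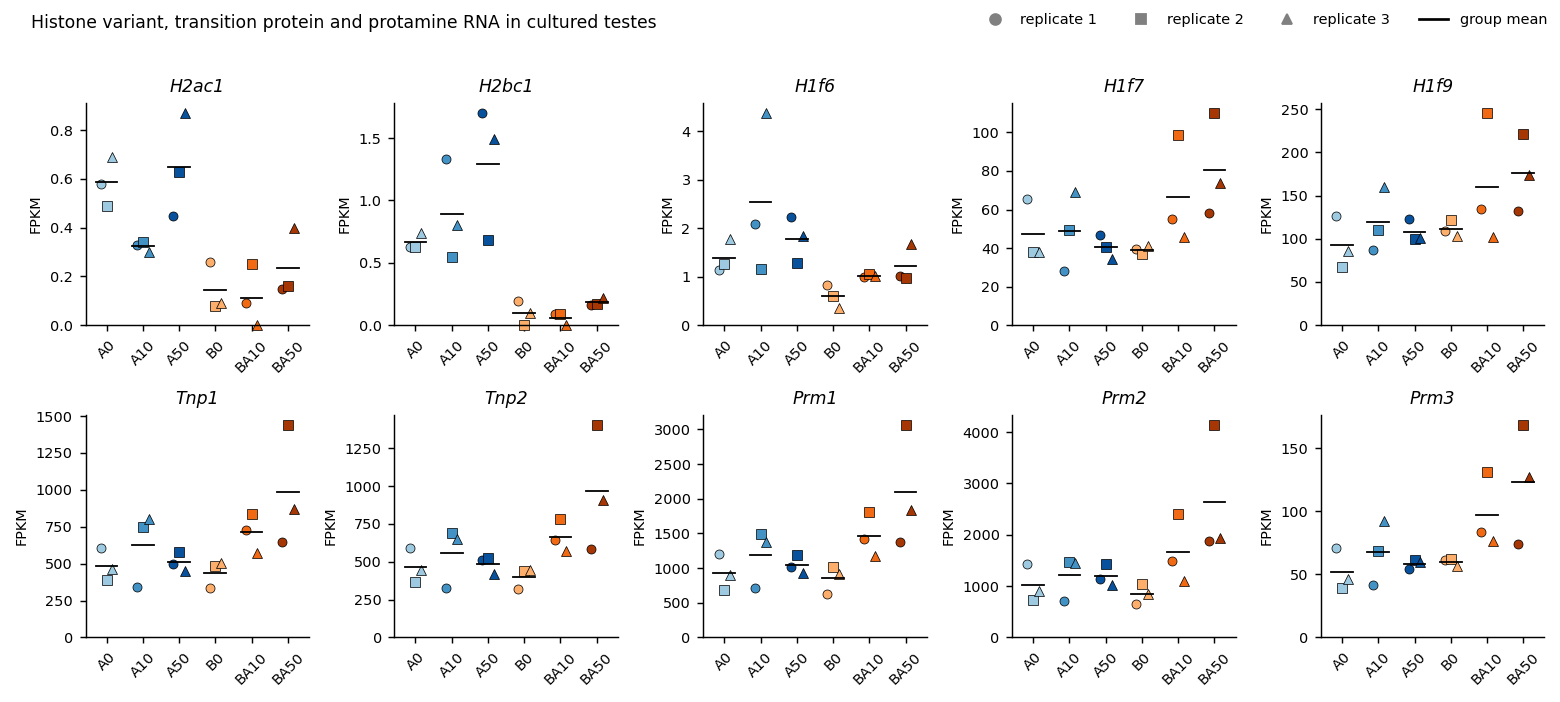
Level of each of the 10 genes (FPKM, linear axis from 0, a separate scale per gene) in the 3 samples of each group, with the replicate number as the symbol and the group mean as a line. H2bc1 was lower in all 9 busulfan samples (highest 0.22) than in all 9 others (lowest 0.55), and 6 of the 7 spermatid genes were highest in BA50 replicate 2.

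Tests were run with limma on log2(FPKM + 1) over the genes that reached 1 FPKM in 3 samples or more, a scale that shrinks the differences of genes with low values. H2ac1 never reached 1 FPKM and had no limma test in this fit, which left 9 of the 10 genes among 15790. H2bc1 was tested only because 3 samples without busulfan (A10 replicate 1, A50 replicates 1 and 3) reached 1 FPKM, so its place among the tested genes came from the groups in which it was high. A gene was called at an adjusted p no higher than 0.001 and a log2 change of 1 or more up or down. The study used these limits with another test, DEGseq, so calls made here with limma are not its calls. Genes with an adjusted p below 0.05 were counted as well. Exact permutation tests (two-sided) cannot give less than 0.1 for 3 against 3 samples. In bulk RNA, fewer cells of a type and less RNA per cell cannot be told apart.

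The first question was how busulfan changed these genes. In FPKM, the earlier histone variants were lower after busulfan and the spermatid genes were not. FPKM is relative to all fragments of a sample, so the amount of RNA per testis was not measured. H2bc1, which encodes TH2B, was at 0.63, 0.63 and 0.74 FPKM in A0 and at 0.19, 0 and 0.10 in B0. It was at 1.33, 0.55 and 0.80 in A10 and at 0.09, 0.09 and 0 in BA10, and at 1.70, 0.68 and 1.49 in A50 and 0.16, 0.17 and 0.22 in BA50. All 9 busulfan samples lay below all 9 others, which was so for 9.66% of the genes tested. The ratio of the mean after busulfan to the mean without it was 0.119. The exact permutation test within AOS concentrations, which needs no filter, gave p = 0.00025, the smallest it can give. With no filter on low values, limma gave H2bc1 a log2 change averaged over the 3 AOS concentrations of -0.78 ± 0.09 (SE, adjusted p = 1.00e-05). With the filter the change was -0.78 ± 0.10 (adjusted p = 1.62e-05), which is a description only, since H2bc1 was tested there through its high groups.

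H2ac1, its partner in the nucleosome and neighbour on chromosome 13, had a lowest value of 0.30, a median of 0.49 and a highest of 0.87 FPKM in the 9 samples without busulfan. In the 9 busulfan samples these were 0, 0.15 and 0.40. Pooled over AOS concentrations, the 9 busulfan samples overlapped the 9 others, with BA50 replicate 3 highest among the busulfan samples. Within each concentration they did not overlap: B0 lay below A0 (22.7% of all genes tested), BA10 below A10 (20.2%) and BA50 below A50 (25.7%). The ratio of means was 0.316, with an exact permutation p of 0.00025 within AOS concentrations, the smallest it can give. With no filter on low values, limma gave H2ac1 an averaged log2 change of -0.38 ± 0.06 (adjusted p = 0.000212).

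H1f6, the H1t linker histone of spermatocytes, ranged from 1.14 to 4.37 FPKM with a median of 1.77 in the 9 samples without busulfan. After busulfan it ranged from 0.36 to 1.67 with a median of 1.00. B0 lay below A0 and BA10 below A10 without overlap, while BA50 and A50 overlapped. The averaged log2 change was -0.54 ± 0.15 (adjusted p = 0.00978, exact permutation p = 0.00125), with a ratio of means of 0.497. Without A10 replicate 3, where H1f6 was highest, the averaged log2 change was -0.42.

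The spermatid genes gave another picture. Prm3 was at 61.2, 62.5 and 56.4 FPKM in B0 and at 70.9, 39.5 and 46.3 in A0. It was at 74.2, 168 and 127 in BA50 and at 54.3, 61.7 and 59.5 in A50. Its averaged log2 change with busulfan was 0.59 ± 0.18 (adjusted p = 0.0188, exact permutation p = 0.011), and it was the only spermatid gene past an adjusted p of 0.05 in that average. H1f9 had 0.45 ± 0.18 (adjusted p = 0.0578, exact permutation p = 0.028). H1f7, Prm1, Prm2, Tnp1 and Tnp2 had averaged log2 changes between 0.33 and 0.42, with adjusted p between 0.122 and 0.178.

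In the average over AOS concentrations, 0 of the 9 tested genes were called, where 3.61% of all genes tested were. H2bc1 had means of 0.667 FPKM in A0, 0.893 in A10 and 0.95 in the 9 samples without busulfan. From levels under 1 FPKM, log2(FPKM + 1) cannot fall by 1. H2bc1 could therefore not be called lower in this average, in B0 against A0 or in BA10 against A10, whatever its fall. At an adjusted p below 0.05, 2 were lower (24.8% of all genes tested were) and 1 was higher (13.3%). H2bc1 enters this count and those of the single concentrations through the filter it passed where it was high, so these counts of lower genes are given with nothing read from them. In B0 compared with A0, none was called (2.54% of all genes) and H2bc1 was the 1 gene lower at an adjusted p below 0.05 (-0.61 ± 0.17, adjusted p = 0.0289; 12.3% of all genes). This H2bc1 value lost that p when A0 replicate 1, 2 or 3 or B0 replicate 2 or 3 was left out (adjusted p 0.0598 to 0.0996). B0 lay below A0 without overlap for 3 of the 10 genes, the earlier histone variants (22.7% of all genes). None of the 7 spermatid genes was apart from A0. The log2 difference between B0 and A0 was -0.12 ± 0.33 for Prm1, -0.23 ± 0.38 for Prm2, -0.14 ± 0.33 for Tnp1 and -0.21 ± 0.31 for Tnp2.

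With 10 μg/mL AOS in both groups, H2bc1 was again the 1 gene lower at an adjusted p below 0.05 (-0.82 ± 0.17, adjusted p = 0.00346; 15.2% of all genes were), and none was called (3.01%). When A10 replicate 1 was left out, H2bc1 fell under the filter and no gene passed. Without A10 replicate 2, H1f6 also passed (-1.01 ± 0.23, adjusted p = 0.00778). BA10 lay below A10 without overlap for 3 of the 10 genes (20.2%). With 50 μg/mL in both, none was called (3.39%). H2bc1 was lower (-0.92 ± 0.17, adjusted p = 0.00119; 16.2%) and Prm3 was higher (0.98 ± 0.32, adjusted p = 0.0391; 3.7%). BA50 lay above A50 for all 7 spermatid genes (16% of all genes) and below it for 2 of the 10, H2bc1 and H2ac1 (25.7%).

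The log2 differences of the other spermatid genes between BA50 and A50 ran from 0.68 for H1f9 to 1.05 for Prm2, with adjusted p of 0.0543 to 0.144. These values depended on single samples. Without BA50 replicate 1, 6 genes passed an adjusted p of 0.05 instead of 2. Prm3 did not pass without A50 replicate 1, 2 or 3 or BA50 replicate 2 or 3 (adjusted p 0.0825 to 0.145), and without A50 replicate 1 or 3 no gene passed, since H2bc1 then fell under the filter. Without A50 replicate 2, H2bc1 met the limits of a call, with a log2 change of -1.13.

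**Figure D2:**
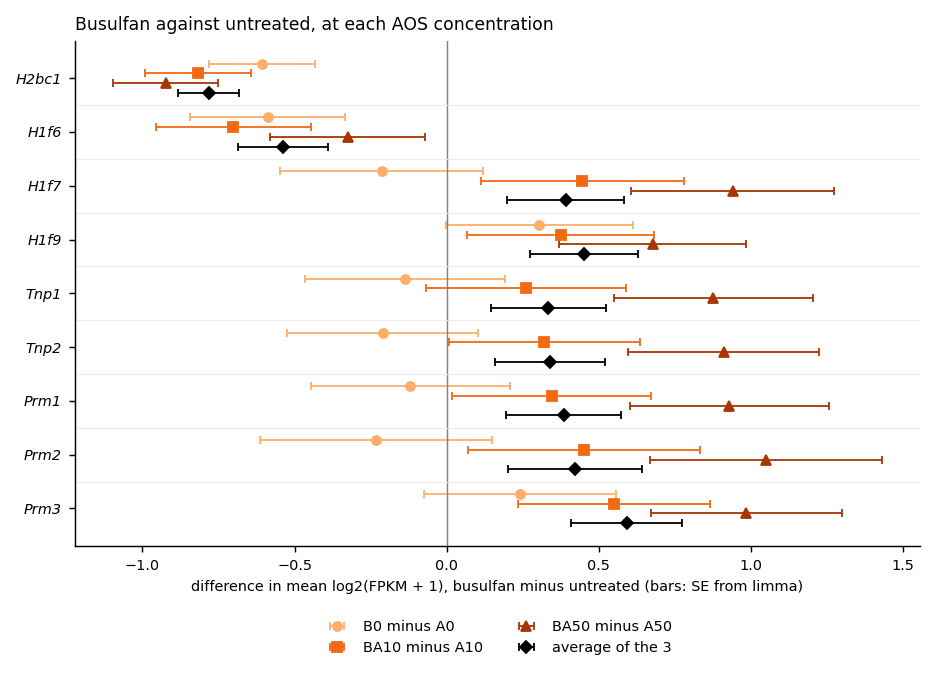
Difference in mean log2(FPKM + 1) between busulfan and untreated samples for the 9 genes tested, at 0, 10 and 50 μg/mL AOS and averaged, with the SE from limma as bars. H2bc1 and H1f6 lie left of 0 at each concentration, and the 7 spermatid genes lie between -0.23 and 0.30 without AOS and between 0.68 and 1.05 at 50 μg/mL.

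Other genes of the germ cell stages were set beside these values, with markers that mark each stage. Of 9 spermatocyte markers, 9 were lower after busulfan in the average at an adjusted p below 0.05, with a median log2 change of -2.48. Sycp3, a protein of the synaptonemal complex, had a median of 116 FPKM without busulfan and 12.7 with it. Of 8 spermatogonium markers, 5 were lower, with a median of -0.94. None of 8 round spermatid markers and none of 12 elongating spermatid markers passed, with medians of 0.39 and 0.37. Over all genes tested, 24.8% were lower and 13.3% higher. The part of the lower spermatocyte markers in the H2bc1, H2ac1 and H1f6 values was not tested.

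Of 16 tested genes known for histone removal and chromatin remodelling in spermatids, 10 were lower after busulfan in the average and 1 was higher, with a median log2 change of -0.28. The shares of all genes tested were 24.8% lower and 13.3% higher. Kdm3a, a histone demethylase needed for transcription of Tnp1 and Prm1, had a median of 43.9 FPKM without busulfan and 22.2 with it (log2 change -0.87 ± 0.06, adjusted p = 4.2e-08). Hspa2, a chaperone of the transition proteins, went from a median of 189.6 to 107 (-0.85 ± 0.14, adjusted p = 0.000218), and Kat5, a histone acetyltransferase, from 27.8 to 16.8 (-0.78 ± 0.07, adjusted p = 3.6e-07). The 1 gene higher was Tssk6, a kinase needed for the exchange of histones for protamines, with medians of 17.4 and 22.0 FPKM (0.54 ± 0.20, adjusted p = 0.0412). Chd5, a chromatin remodeller, and Cdyl, a chromodomain protein, had log2 changes of 0.35 and 0.25 and did not pass (adjusted p 0.121 and 0.0955). Without AOS, these 3 genes were not higher after busulfan. The log2 difference between B0 and A0 was -0.21 ± 0.34 for Tssk6, -0.04 ± 0.30 for Chd5 and -0.14 ± 0.20 for Cdyl.

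Of 14 tested genes for transcription and storage of protamine and transition protein mRNA, 8 were lower (24.8% of all genes tested) and none was higher (13.3%), with a median of -0.36. Taf7l, a male germ cell form of a general transcription factor subunit, was the 1 gene of the 14 called (3.61% of all genes tested were). It ranged from 23.9 to 40.6 FPKM without busulfan and from 4.27 to 9.94 with it (-2.24 ± 0.15, adjusted p = 1.3e-08). Tarbp2, an RNA-binding protein needed for protamine translation, fell from a median of 39.6 to 22.9 (adjusted p = 7.51e-06), and Rfx2, a transcription factor of spermatids, from 39.1 to 24.8 (adjusted p = 0.00122). Kif17 and Fhl5, which act with the factor CREM in spermatids, had log2 changes of 0.44 and 0.41 and did not pass (adjusted p 0.0523 and 0.0785), and Prkra, an RNA-binding protein, had -0.01 (adjusted p = 0.895). Of 9 other testis histone variants listed, 7 were in the table and 5 were tested. None passed, and all 5 had averaged log2 changes above 0, from 0.08 for H2ab3 through 0.25 for H2al2a, 0.28 for H2al3 and 0.32 for H2bl1 to 0.34 for H2ap. Between B0 and A0, without AOS, the log2 differences were -0.14 for H2al2a, -0.07 for H2ab3 and H2al3, -0.002 for H2ap and 0.13 for H2bl1. H3f4 and H2ab1 stayed under the filter, at no more than 1.56 and 1.69 FPKM.

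**Figure D3:**
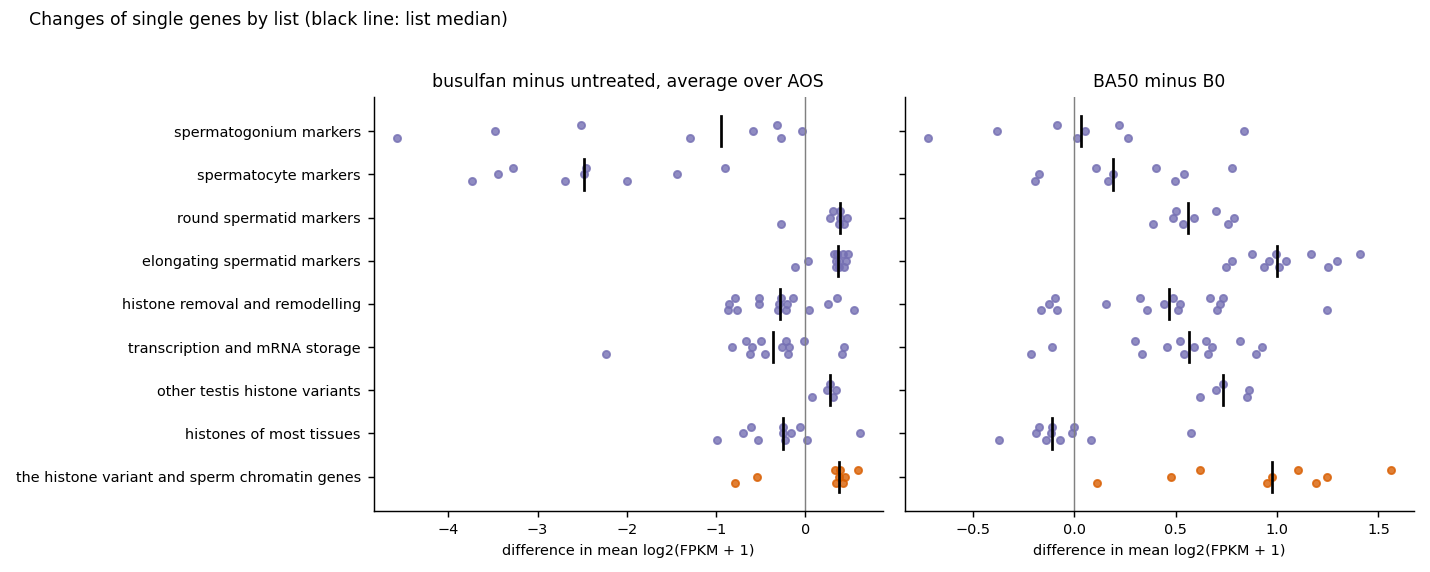
Difference in mean log2(FPKM + 1) of each tested gene, 1 point per gene, by list, for busulfan minus untreated averaged over AOS (left) and for BA50 minus B0 (right), with the median of each list as a line. On the left, the spermatocyte markers have a median of -2.48 and the elongating spermatid markers one of 0.37, and on the right the elongating spermatid markers have a median of 1.00 and the 9 tested genes of the histone variant and sperm chromatin group one of 0.97.

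The second question was whether AOS in the medium changed these genes after busulfan. None of the 9 tested genes passed an adjusted p of 0.05 in BA10 (0.0253% of all genes did) or in BA50 (0.095%) compared with B0, although most spermatid genes were higher in every AOS sample. Prm1 was at 622, 1019.9 and 911 FPKM in B0, at 1418, 1807 and 1181 in BA10 and at 1382, 3057 and 1837 in BA50. Prm2 was at 655, 1039 and 848 in B0, at 1486, 2397 and 1090.3 in BA10 and at 1869.8, 4128 and 1933 in BA50. All BA10 and BA50 values of both protamine genes were above all B0 values, and BA50 replicate 2 was the highest sample.

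Tnp1 was at 336, 481 and 503 FPKM in B0, at 727, 837 and 573 in BA10 and at 647, 1436 and 871 in BA50. Tnp2 was at 321, 436 and 446 in B0, at 642, 782 and 569 in BA10 and at 587, 1400.3 and 909.5 in BA50. Both transition protein genes thus had B0 as the lowest of the 3 groups, without overlap. H1f7 was at 39.5, 37.1 and 40.9 in B0, at 55.0, 98.7 and 45.8 in BA10 and at 58.5, 109.95 and 73.5 in BA50, and H1f9 was at 109, 122 and 104 in B0, at 134, 245 and 102 in BA10 and at 132, 221 and 173 in BA50. H1f7 was apart from B0 in both groups, while H1f9 overlapped B0 in BA10.

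In BA50 compared with B0, the log2 change was 1.56 ± 0.38 for Prm2 (ratio of mean FPKM 3.12), 1.25 ± 0.33 for Prm1 (2.46), 1.19 ± 0.31 for Tnp2 (2.41) and 1.10 ± 0.33 for Tnp1 (2.24). It was 0.97 ± 0.33 for H1f7, 0.95 ± 0.32 for Prm3, 0.62 ± 0.31 for H1f9, 0.48 ± 0.26 for H1f6 and 0.11 ± 0.17 for H2bc1. The adjusted p from limma ran from 0.101 for Prm2 to 0.228 for H1f9 among the spermatid genes, and was 0.257 for H1f6 and 0.696 for H2bc1. With the replicate number as a block shared by all 6 groups, the adjusted p ran from 0.121 for Prm2 to 0.258 for H1f9 among the spermatid genes. It was 0.238 for H1f6 and 0.663 for H2bc1, so no gene changed its side of 0.05. BA50 lay above B0 without overlap for 8 of the 10 genes, all but H2bc1 and H2ac1, and for 11.2% of all genes. Of the 9 tested genes, 6 had an unadjusted p below 0.05 and were higher, where 12.7% of all genes did and were. Prm1, Prm2, Tnp1, Tnp2 and H1f7 are among the genes that the study picked out on these samples, so their direction is not independent evidence.

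Single samples changed the side of the threshold. Without BA50 replicate 1, the lowest BA50 sample for most spermatid genes, Prm1, Prm2, Prm3, Tnp1 and Tnp2 passed an adjusted p of 0.05 (0.0363 for Tnp2 to 0.0432 for Tnp1). Without BA50 replicate 2, the highest, the log2 changes fell to 1.19 for Prm2 and 0.94 for Prm1, with adjusted p of 0.517 for both. The B0 samples also differed from the others in genes of other tissues. The 6 fat cell markers summed to between 48.2 and 320.3 FPKM in B0 and to between 3.08 and 16.8 in every other sample, and 5 keratin and epithelial genes to between 79.4 and 203 in B0 and between 17.0 and 46.6 elsewhere. Epcam, 1 of these 5, was not raised: it was at 11.3, 26.0 and 21.7 in B0 and at 19.4 to 26.2 without busulfan. The 6 epididymis markers in the table reached 38.1 in 1 B0 sample, replicate 2, where Crisp1 alone had 37.4. Rnase10, another of the 6, was at 0.15, 0.52 and 0.16 in B0 and at 0.22 to 3.27 without busulfan. The part of these B0 differences in the BA10 and BA50 comparisons was not tested.

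In BA10 compared with B0, log2 changes of the spermatid genes ran from 0.43 for H1f9 to 0.92 for Prm2, all with an adjusted p of 0.749. BA10 lay above B0 without overlap for 7 of the 10 genes (3.64% of all genes), all but H1f9, H2bc1 and H2ac1. BA10 and BA50 were compared with the same B0 samples, so the 2 sets of values are not independent of each other. Without busulfan, AOS gave no such order. Prm1 was at 1205, 679 and 905 FPKM in A0, at 719.6, 1489.6 and 1376 in A10 and at 1015, 1183 and 936 in A50, and the groups overlapped.

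The log2 change of the 9 tested genes ran from 0.01 for H1f7 to 0.47 for H1f6 in A10 and from -0.18 for H1f7 to 0.43 for H2bc1 in A50, compared with A0, and no adjusted p was below 0.281 (0% of all genes passed an adjusted p of 0.05 in either comparison). At an unadjusted p below 0.05, limma found 0 of the 9 in A10 (15.2% of all genes) and 1 in A50, H2bc1 (15.6%). H2ac1 in A10, at 0.33, 0.34 and 0.30 FPKM, was the 1 gene of 10 that lay apart from A0, below it (12.2% of all genes). None of the 10 was apart in A50. The test of the difference between the 50 μg/mL change after busulfan and without it gave log2 values of 1.28 ± 0.54 for Prm2, 1.15 ± 0.47 for H1f7, 1.12 ± 0.44 for Tnp2, 1.05 ± 0.46 for Prm1 and 1.01 ± 0.46 for Tnp1. Their unadjusted p lay between 0.0237 and 0.0461 (6.28% of all genes had a p below 0.05 in either direction), and the adjusted p of all 9 lay between 0.73 and 0.975 (0% of all genes passed 0.05). At 10 μg/mL, no adjusted p was below 0.91, and again 0% of all genes passed.

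**Figure D4:**
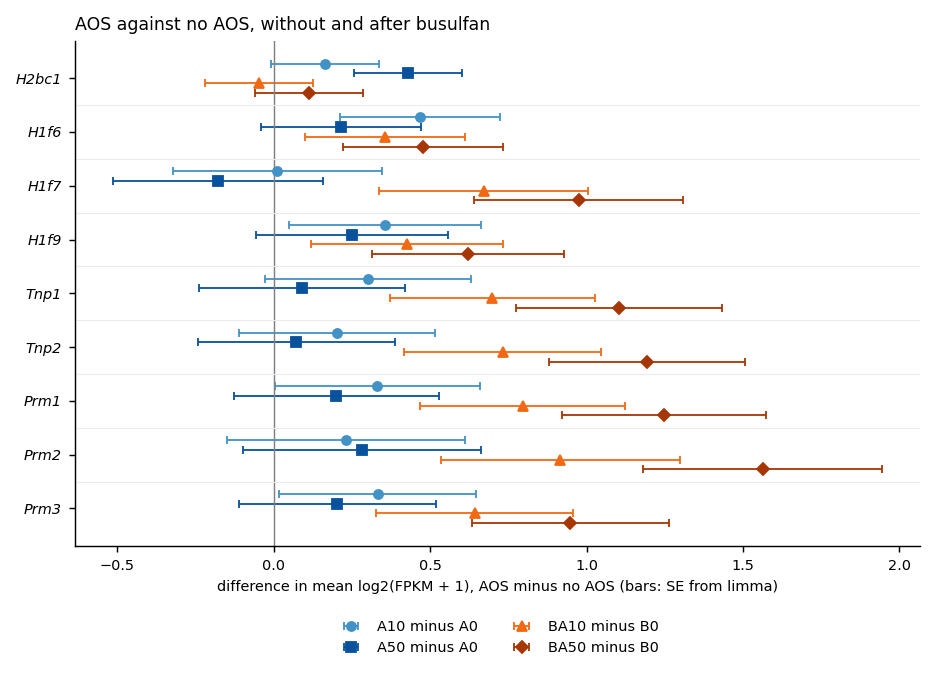
Difference in mean log2(FPKM + 1) between AOS and no AOS for the 9 genes tested, at 10 and 50 μg/mL, without and after busulfan, with the SE from limma as bars. After busulfan, the spermatid genes lie between 0.43 and 0.92 at 10 μg/mL and between 0.62 and 1.56 at 50 μg/mL, and without busulfan between -0.18 and 0.36.

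The elongating spermatid markers were set beside the spermatid genes in BA50 and B0. None of the 12 passed an adjusted p of 0.05 (0.103 to 0.160). All 12 had a higher mean in BA50 and an unadjusted p below 0.05, as 12.7% of all genes did, with a median log2 difference of 1.00. Odf1, which encodes an outer dense fiber protein of the sperm tail, had a mean of 208 FPKM in B0 and 440.0 in BA50, and Akap4, a protein of the fibrous sheath, 113 and 227. Odf1 too is among the genes the study picked out on these samples, so its direction is not independent evidence. The mean log2(FPKM + 1) of the 12 markers was 6.64 ± 0.16 (SD, n = 3) in B0, 7.27 ± 0.56 in BA10 and 7.68 ± 0.45 in BA50, and 6.72 ± 0.47, 6.98 ± 0.54 and 6.93 ± 0.15 in A0, A10 and A50. The part of the marker levels in the spermatid gene values was not tested.

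The levels of the spermatid genes were also set against these markers within each sample. The log2 level of Prm1 was above the mean of the 12 markers by 3.10 ± 0.18 in A0, 3.18 ± 0.30 in A10, 3.09 ± 0.12 in A50, 3.06 ± 0.31 in B0, 3.22 ± 0.27 in BA10 and 3.27 ± 0.17 in BA50. Tnp1 lay above it by 2.06 to 2.22 in the 6 group means, with SDs of 0.13 to 0.33. Prm2 lay above it by 3.06 ± 0.24 in B0 and 3.59 ± 0.21 in BA50. The 3 B0 values (highest 3.21) were below those of BA50 (lowest 3.43) and of BA10 (lowest 3.28). H1f9 differed in the other direction between B0 and BA50. Its level relative to the markers was -0.21 ± 0.12 in A0, 0.17 ± 0.05 in B0 and -0.24 ± 0.18 in BA50. The 3 B0 values (lowest 0.11) were above those of every other group (highest 0.04, in BA10 replicate 2). No test was run on these relative levels, and the share of all genes apart in this way was not counted. Prm3 was at -1.03 ± 0.07 in A0, -0.71 ± 0.12 in B0 and -0.80 ± 0.32 in BA50, with B0 (lowest -0.84) above A0 (highest -0.95) and overlapping BA50. H1f7 was at -1.18 ± 0.08 in A0, -1.31 ± 0.23 in B0 and -1.38 ± 0.10 in BA50, which overlapped B0, and was lowest at -1.57 ± 0.10 in A50. Tnp2 lay above the markers by 1.98 to 2.15 in the 6 group means, with SDs of 0.04 to 0.34.

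The proportions of the protamine and transition protein genes to each other were compared within samples. The ratio of Prm2 to Prm1 was 1.08 ± 0.0942 in A0, 1.01 ± 0.0415 in A10, 1.15 ± 0.0609 in A50, 1.00 ± 0.0629 in B0, 1.10 ± 0.206 in BA10 and 1.25 ± 0.173 in BA50. It was highest in BA50 replicates 1 and 2, while BA50 replicate 3 had 1.05, inside the range of B0 (0.931 to 1.05). The ratio of Tnp1 to Prm1 had group means between 0.471 and 0.527, and that of Tnp2 to Tnp1 between 0.901 and 0.976. Together Prm1, Prm2, Tnp1 and Tnp2 made up 0.613% ± 0.177 of all FPKM in A0, 0.522% ± 0.125 in B0, 0.933% ± 0.243 in BA10 and 1.34% ± 0.584 in BA50, with 2.00% in BA50 replicate 2.

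**Figure D5:**
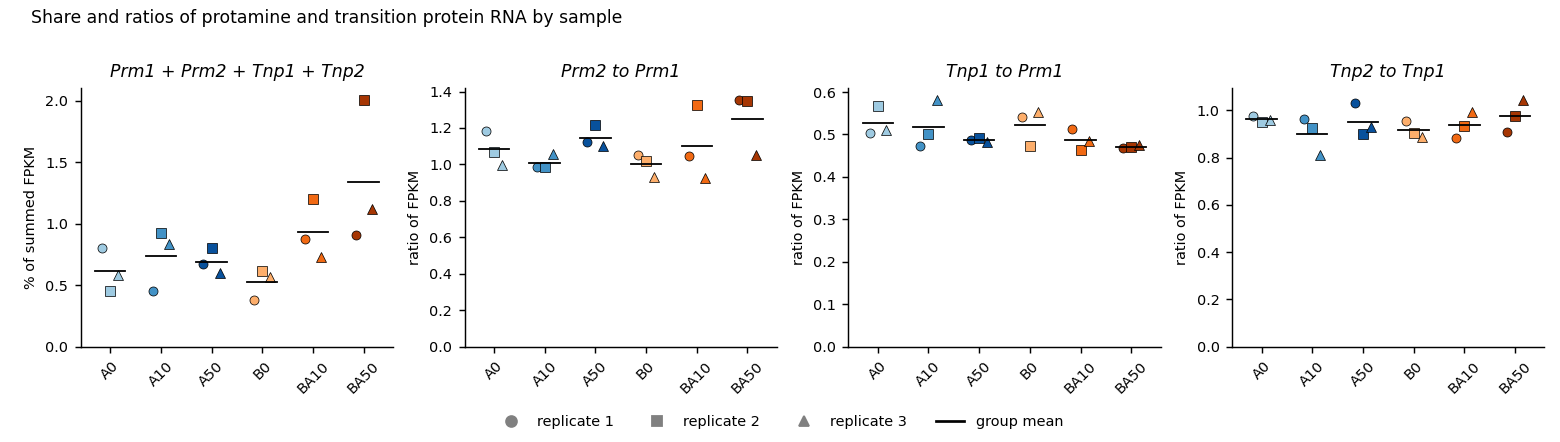
Share of summed FPKM held by Prm1, Prm2, Tnp1 and Tnp2 (percent) and ratios of FPKM between these genes, in the 3 samples of each group, with the replicate number as the symbol and the group mean as a line. The share has group means from 0.522% in B0 to 1.34% in BA50, while Tnp1 to Prm1 stays between group means of 0.471 and 0.527.

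Across the 18 samples, the spermatid genes followed each other. Pearson's r on the log2 scale had a median of 0.905 over the 21 pairs (0.814 to 0.987), and a median of 0.866 with group means taken out. The 3 pairs among the earlier histone variants had r of 0.469, 0.697 and 0.761, and with group means taken out these were no more than 0.421. The 21 pairs of a spermatid gene with an earlier histone variant had r between -0.489 and 0.0328. All points come from the same 18 libraries, so shared library differences enter each r. A mean pattern was taken of the 9 tested genes, 7 of them spermatid genes. The genes of the table most like it were 1700001C19Rik (r = 0.976), Psmf1 (0.971), 1110017D15Rik (0.971), 1700001O22Rik (0.970) and Gm5767 (0.968), over 18 samples and 15781 genes. With group means taken out they were Psmf1 (0.980), H2al2a (0.976), Thegl (0.975), Gm6657 (0.972) and H2bl1 (0.971).

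In the series as a whole, FPKM of a sample summed to between 463970 and 511274, and how many reads lie behind them is unknown. Within groups, r across genes was highest at 0.993, and A10 replicate 3 stood apart from the other A10 samples (0.962 and 0.968). The BA50 samples had r of 0.970, 0.979 and 0.984 with each other. Sertoli cell markers and Leydig cell markers were present in every sample, with summed levels of 1031 to 5084 and 708 to 2285 FPKM.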

How the data were processed

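Members and gene lists were chosen with earlier results of these data known. Per the labels, the authors' processing used HISAT, Bowtie2 and RSEM with the build GRCm38.p5, while the methods name SOAPaligner and RPKM, so the exact route is unsure. Libraries were made from poly(A) RNA. The authors deposited FPKM values per gene with 2 decimals, and read numbers and thus depth are unknown. Gene numbers were matched to symbols through RefSeq, which also gave the sequences (GRCm38.p6). log2(FPKM + 1) was tested in R 4.3.3 with limma 3.58.1 (eBayes with trend) in one fit of 18 samples and 6 groups, with Benjamini-Hochberg adjustment over 15790 genes. For single genes, samples were also permuted exactly, two-sided (20 arrangements for 3 against 3, 8000 within AOS concentrations). The fit was tested on simulated data.

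Named genes were all 10 members, and per pathway list the 3 with the lowest and the 3 with the highest averaged busulfan change, with 7 marker genes. The replicate numbers of the labels were tried as a block. Same-numbered B0 and BA50 samples deviated together (r 0.562, 0.422 and 0.138), so values for that comparison are given without and with the block. In no other comparison were all 3 above 0.1, and A0 and B0 samples had r of -0.362, -0.429 and 0.172. The block of the 18-sample fit gave the 6 groups the same replicate effects, so it does not pair B0 with BA50 alone. Alternatives were eBayes without trend or robust, sample quality weights, quantile normalization, samples scaled to equal sums, 0.1 as the pseudocount, a fit limited to the samples of a comparison, no filter or a strict one that keeps means of 5 FPKM or more, and each replicate left out. A fit of only B0 and BA50 with the block was chosen after seeing the data. Tables and permutation tests came from SciPy 1.17.1, NumPy 2.4.6 and pandas 2.3.3 under Python 3.11.15, figures from matplotlib 3.10.9.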

Additional observations from a re-analysis of the deposited data

How the results depend on the processing

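Direction was checked for a chosen set of single-gene changes, and none of these changed direction under any alternative. The set held the 9 tested genes in the average over AOS, and H2bc1 and H1f6 at each AOS concentration. It also held the spermatid genes, H1f6 and H2bc1 in BA50 against B0, and Prm3 in BA50 against A50. Other changes were not checked for direction. Among them are those of the spermatid genes in B0 against A0 and all in A10 and A50 against A0. In the main fit, H2bc1 could not be called lower in B0 against A0, BA10 against A10 or the average, as stated above. Under the limits of a call, 0 of the 9 tested genes were called in every comparison. The count became 1 with a pseudocount of 0.1 for BA10 against A10 and for the average over AOS, and 1 with samples scaled to equal sums for BA50 against A50 and for the average. With an adjusted p below 0.05 and no fold limit it was 1 for B0 against A0, 1 for BA10 against A10, 2 for BA50 against A50 and 3 for the average. Leaving out single replicates gave 0 to 1 calls for BA50 against A50 and none elsewhere.

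At an adjusted p below 0.05, the fit of only the groups compared gave 0 genes for B0 against A0, 0 for BA10 against A10 and 1 for BA50 against A50. The strict filter, which removes H2bc1 and H1f6, gave 0, 0 and 1 in these comparisons and 1 in the average, and quantile normalization gave 0 for B0 against A0. With no filter there were 2 for B0 against A0. With sample quality weights there were 2 for B0 against A0, 7 for BA50 against A50, 5 in the average and 5 for BA50 against B0. The lowest weights were 0.126 for A10 replicate 3, 0.342 for BA10 replicate 2, and 0.381 and 0.390 for BA50 replicates 1 and 2. Leaving out single replicates gave 0 to 1 for B0 against A0, 0 to 2 for BA10 against A10, 0 to 6 for BA50 against A50, 2 to 4 for the average and 0 to 5 for BA50 against B0. The cause of these moves was not tested, apart from the genes that leave the fit under a filter.

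The replicate block changed no count of genes by more than 1.5 times. For Prm2 in BA50 against B0 it gave an adjusted p of 0.121 (0.146 with only these groups and the block, chosen after seeing the data). For the single-gene changes of the chosen set, 453 alternatives kept the side of the threshold, 19 moved past it and 13 moved behind it. All kept the same direction. Moves of other changes are not in these numbers, such as those of H1f7, H1f9, Prm1, Tnp1 and Tnp2 in BA50 against A50. The unknown depth and 3 samples per group limit what could be detected, above all for H2ac1, H2bc1 and H1f6, whose values lie near 1 FPKM.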

Other observations

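Histones that most tissues use were measured as well. Of 15 such genes, 11 were tested, and after busulfan 8 were lower and 1 higher in the average over AOS at an adjusted p below 0.05 (24.8% and 13.3% of all genes tested), with a median log2 change of -0.25. H1f10, a linker histone, had a median of 17.4 FPKM without busulfan and 6.32 with it (log2 change -0.99 ± 0.11, adjusted p from limma 4.23e-06). H2ax, the variant that is phosphorylated at DNA breaks and in the sex body of spermatocytes, had medians of 20.4 and 11.2 FPKM (-0.70 ± 0.08, adjusted p = 5.7e-06), and Cenpa, the histone of centromeres, 7.53 and 4.83 (-0.61 ± 0.07, adjusted p = 9.5e-06). H1f2, a linker histone of somatic cells, was the 1 gene higher, with medians of 13.6 and 21.6 FPKM (0.61 ± 0.13, adjusted p = 0.00193). H3f3a, which encodes the replacement histone H3.3, had medians of 425 and 411 FPKM and a log2 change of -0.05 ± 0.05. H1f0, another linker histone of somatic cells, had 32.7 and 31.1 FPKM (0.02 ± 0.15). In BA50 compared with B0 none of the 11 passed, and their median log2 change was -0.11.

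Among markers of other cells, Star, the cholesterol carrier of Leydig cells, had a median of 193 FPKM without busulfan and 352 with it (log2 change 0.75 ± 0.12, adjusted p = 0.000205). Sox9 of Sertoli cells had 14.5 and 17.1 (adjusted p = 0.12), Acrv1 of round spermatids 51.5 and 65.8 (adjusted p = 0.123) and Zbtb16 of spermatogonia 2.83 and 2.24 (adjusted p = 0.0637).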
